A study of Homo sapiens with 16 samples.

Results

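The 10 genes of the cornified envelope and of the keratin cytoskeleton described here were measured in lung cancer cells treated with an EGFR inhibitor, a tankyrase inhibitor or both. They were 3 small proline-rich proteins (SPRR1A, SPRR1B and SPRR3), the sodium pump regulator FXYD3, and 6 keratins (KRT7, KRT8, KRT17, KRT18, KRT19 and KRT80). Each was found by its symbol among the 24293 loci of the table and had 1 row there, so that 10 of 24293 loci are described. The group was chosen from earlier results on the same libraries: SPRR1A, SPRR1B and FXYD3 had been seen to be higher with AZ1366 than with vehicle. Values of AZ1366 against vehicle, and the interaction that contains them, are therefore given as a description with no test. For SPRR1A, SPRR1B and FXYD3 the same holds for each comparison that uses the vehicle or the AZ1366 libraries, and p-values of these 3 genes are given for the combination against gefitinib alone. Of the 10 genes, 8 passed the filter for testing, a mean of at least 1 FPKM over the 16 libraries; SPRR3 and KRT17 did not. FPKM is a fragment count divided by transcript length and by library size.

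All groups are HCC4006 cells, an established line of non-small cell lung cancer that carries an activating EGFR mutation. After 24 h of growth they received, for another 24 h, DMSO as the vehicle, 100 nM gefitinib (an inhibitor of the EGFR kinase), 100 nM AZ1366 (an inhibitor of the tankyrases), or 100 nM of each compound together, called the combination here. Each of the 4 groups held 4 libraries of polyA RNA, from a single cell line. Whether the 4 are separate cultures is not in the labels; every p-value below thus rests on the variation among libraries, which may be technical.

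Cornified envelope proteins are made late in the differentiation of stratified epithelia, where transglutaminases crosslink small proline-rich proteins, involucrin and loricrin beneath the plasma membrane. SPRR genes are also switched on in airway epithelium under stress or squamous change. Keratins form filaments of paired type I (acidic) and type II (basic) chains: KRT8 and KRT18 are the first pair of simple epithelia, joined in glandular and airway epithelium by KRT7 and KRT19, whereas KRT17 belongs to basal and injured epithelium and KRT80 lies near cell junctions. FXYD3 is a small membrane protein that binds the sodium pump and modulates its transport.

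Library sums of FPKM lay between 433357 and 478179, and between 11326 and 11799 loci reached 1 FPKM. With no read counts the depth is unknown, and no interval for counting error is given. All 10 epithelial carcinoma markers checked (among them EPCAM and CDH1) had a mean of at least 1 FPKM, and their sum ran from 852 to 907 FPKM in vehicle libraries, 1011 to 1042 under gefitinib, 960.2 to 1129 with AZ1366 and 1179 to 1226 with the combination. Of 10 basal or squamous markers 6 reached 1 FPKM, KRT6A among them only through its AZ1366 libraries. The sums of the 10 were 8.30 to 9.26, 9.44 to 10.95, 10.1 to 11.9 and 10.6 to 11.2 FPKM in the same order of groups. That list is not separate from the keratin and desmosome lists below, which also hold its KRT5, KRT6A, KRT6B, KRT14, KRT15 and PKP1. Of the markers of other cell types, 1 of 6 fibroblast, 1 of 5 endothelial (KDR) and 1 of 6 leukocyte (CD68) genes reached 1 FPKM; the leukocyte sum, nearly all CD68, was 34.4 to 38.3 FPKM in vehicle libraries and 58.6 to 64.7 FPKM with the combination. In bulk RNA, fewer cells of a kind and less RNA per cell cannot be told apart.

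Simple epithelial keratins were the most abundant of the 10 genes, and the small proline-rich genes and KRT17 the least. In vehicle libraries the mean levels fell from KRT7 (1763 FPKM, 13th of all loci by mean level) to KRT8 (1454), KRT18 (1050.5), KRT19 (801), KRT80 (137), FXYD3 (35.4), SPRR1B (4.48), SPRR1A (2.36), KRT17 (0.603) and SPRR3 (0.354 FPKM). Of the neighbours in that order only KRT7 and KRT8 overlapped. With gefitinib KRT18 overlapped KRT19, and SPRR1B overlapped both SPRR1A and KRT17; with AZ1366 KRT19 overlapped both KRT8 and KRT18, and KRT80 overlapped FXYD3. The order with the combination differed from that of vehicle at 3 places: KRT19 (793 FPKM) stood above KRT8 (695) and KRT18 (486), FXYD3 (142) stood above KRT80 (121), and SPRR1A (4.33) stood above SPRR1B (2.78), with no overlap between neighbours. Only KRT17 and SPRR3 overlapped in that order.

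**Figure D1:**
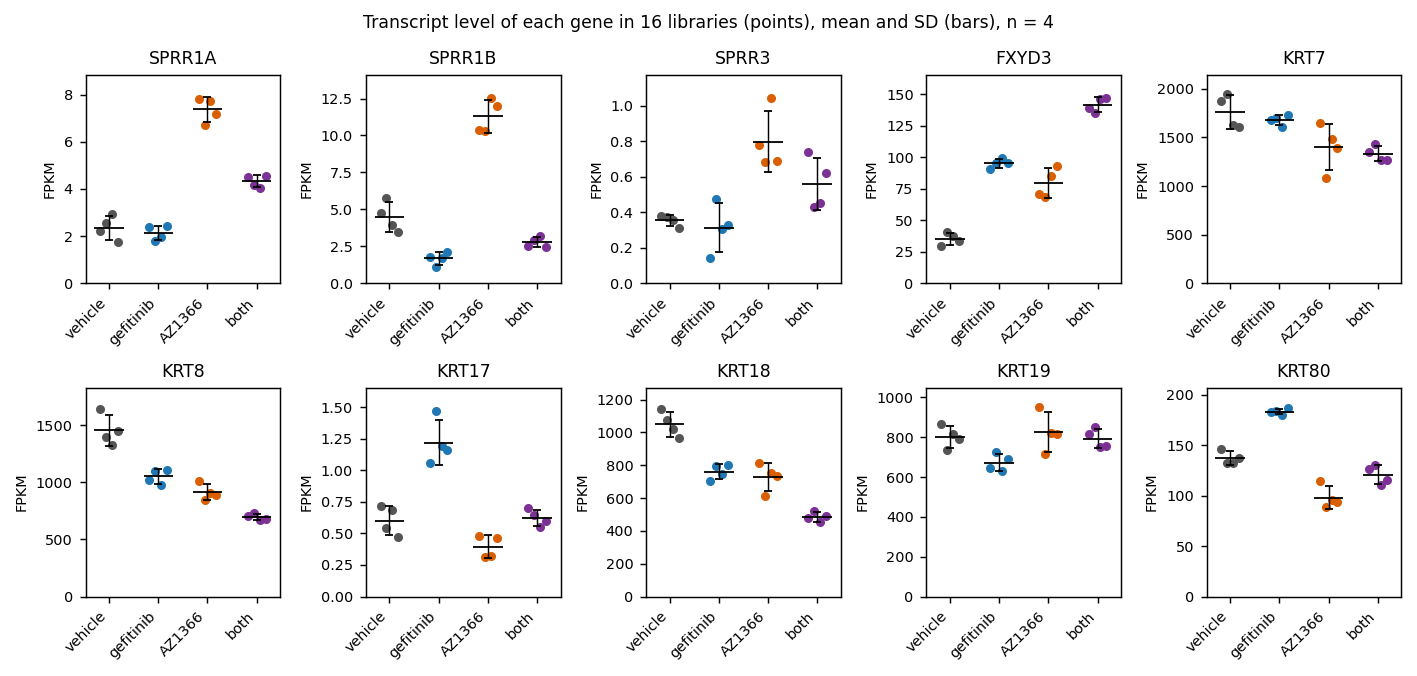
Level of each of the 10 genes in FPKM (vertical axes, from 0) in the 4 libraries of each treatment group (points), with the group mean and SD as bars; "both" is the combination. SPRR1A and SPRR1B stand highest with AZ1366, FXYD3 with the combination, KRT80 and KRT17 under gefitinib, and KRT8 and KRT18 are lowest with the combination.

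SPRR1A lies at chr1:152956563-152958290 (hg19), SPRR3 at chr1:152974222-152976332 and SPRR1B at chr1:153003678-153005376, as neighbours in the epidermal differentiation complex. All 3 had their highest group mean with AZ1366, though SPRR1A and SPRR1B were chosen because they were higher with it. SPRR3 was below the filter, and its AZ1366 libraries overlapped those of the combination. Their upstream sequences are shown because these 3 genes belong to 1 family and cluster and had that pattern in common. The sequences are the 250 bases before the RefSeq start on GRCh38.p14, plus strand, 5′ to 3′, at chr1:152983831-152984080 for SPRR1A, chr1:153030953-153031202 for SPRR1B and chr1:153001499-153001748 for SPRR3. Capitals mark matches to the AP-1 motif TGANTCA and to the TEAD motif GGAATG, searched on both strands.
SPRR1A: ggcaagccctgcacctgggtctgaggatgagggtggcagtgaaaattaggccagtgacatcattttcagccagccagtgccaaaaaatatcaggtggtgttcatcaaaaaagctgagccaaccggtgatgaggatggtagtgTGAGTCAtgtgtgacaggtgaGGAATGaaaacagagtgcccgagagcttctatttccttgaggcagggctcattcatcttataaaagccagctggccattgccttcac
SPRR1B: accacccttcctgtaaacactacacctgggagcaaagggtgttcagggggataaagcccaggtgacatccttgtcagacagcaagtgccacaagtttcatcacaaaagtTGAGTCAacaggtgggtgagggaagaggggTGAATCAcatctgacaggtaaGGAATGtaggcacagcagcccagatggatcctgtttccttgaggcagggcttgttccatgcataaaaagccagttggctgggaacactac
SPRR3: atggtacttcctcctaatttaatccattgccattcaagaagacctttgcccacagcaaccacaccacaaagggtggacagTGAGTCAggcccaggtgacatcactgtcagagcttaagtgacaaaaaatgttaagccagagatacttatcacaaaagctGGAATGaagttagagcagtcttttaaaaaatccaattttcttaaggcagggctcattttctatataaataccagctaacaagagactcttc

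An AP-1 match was present in all 3 windows, starting 108 bases before the start in SPRR1A, 141 and 111 bases in SPRR1B, and 170 bases in SPRR3. TGANTCA occurred in 6.57% of 35116 windows of 250 bases upstream of RefSeq genes. A TEAD match started 87, 90 and 91 bases upstream in SPRR1A, SPRR1B and SPRR3, against 11.9% of all windows with GGAATG. The E-box CAGGTG, held by 17.5% of windows, matched 3 times in SPRR1A, 3 times in SPRR1B and 1 time in SPRR3. The ETS letters CNGGAA occurred in 54.9% of windows, which makes a match of little use; SPRR1B had 1, SPRR3 had 1 that overlaps its TEAD match, and SPRR1A had none. TATAAA on the gene's strand began 29 bases upstream in SPRR1A and in SPRR3, against 6.80% of windows, and these letters were not in the SPRR1B window. Upstream sequences were found for 5 of the 10 genes. In those of FXYD3 and KRT8 the only match among these motifs was 1 ETS match each. A match describes letters and is no measured binding site. The 3 SPRR windows belong to related genes shown for a common pattern, so they are not independent, and enrichment was not tested.

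SPRR1A measured 2.20, 2.55, 2.95 and 1.75 FPKM in vehicle libraries, 2.38, 1.78, 1.98 and 2.41 under gefitinib, 7.84, 6.73, 7.75 and 7.19 with AZ1366, and 4.50, 4.18, 4.06 and 4.57 with the combination. All 4 AZ1366 libraries stood above all others, the combination stood between, and vehicle and gefitinib overlapped. SPRR1A is one of the proteins crosslinked into the envelope. When AZ1366 was added to gefitinib it rose 2.02-fold in mean FPKM, by 0.77 ± 0.094 on the log2(FPKM + 1) scale (standard error, n = 4 libraries a group; limma, adjusted p = 7.76e-06). Against vehicle it was 3.12-fold higher with AZ1366 alone, a log2 difference of 1.33 ± 0.094.

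SPRR1B, the closest relative of SPRR1A, measured 4.77, 5.79, 3.92 and 3.45 FPKM with vehicle, 1.77, 1.11, 1.69 and 2.14 under gefitinib, 10.4, 10.3, 12.5 and 11.98 with AZ1366, and 2.54, 2.90, 3.19 and 2.47 with the combination. None of the 4 groups overlapped another. Under gefitinib it was at 0.374 of the vehicle mean, a log2 difference of -1.03 ± 0.13, whereas that of SPRR1A was -0.09 ± 0.094. Addition of AZ1366 to gefitinib raised SPRR1B by 0.51 ± 0.13 (limma, adjusted p = 0.00327), yet the combination was below vehicle (-0.52 ± 0.13). SPRR1A in that comparison was higher, by 0.67 ± 0.094.

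The ratio of SPRR1B to SPRR1A within a library, which is free of scaling between libraries, was 1.93 ± 0.422 with vehicle, 1.53 ± 0.150 with AZ1366, 0.777 ± 0.120 with gefitinib and 0.647 ± 0.115 with the combination (SD, n = 4). It stood at 1.32 or above in every library without gefitinib and at 0.886 or below in every library with it. By the GENCODE transcripts, 11.3% of the 50-base stretches of SPRR1A also occur in SPRR1B, and 4.38% of those of SPRR1B in SPRR1A. Part of their reads could thus be assigned to either. The SPRR1A transcript used (270 bases) is a coding sequence alone, so its untranslated parts are not in these shares.

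SPRR3, the third of these genes and a product of moist epithelia such as the esophagus, stayed below the filter. Its libraries measured 0.376, 0.375, 0.356 and 0.310 FPKM with vehicle, 0.143, 0.476, 0.304 and 0.328 under gefitinib, 0.778, 0.683, 1.04 and 0.686 with AZ1366, and 0.736, 0.429, 0.453 and 0.620 with the combination. AZ1366 libraries lay above all vehicle libraries, at 2.25 times their mean. The combination lay above vehicle without overlap, at 1.58 times its mean (exact permutation test of the means, two-sided, p = 0.0286, the smallest that 4 against 4 libraries can give). Against gefitinib the combination was at 1.79 times the mean with overlap (exact p = 0.0857), though a fit without the filter put it past the threshold (0.25 ± 0.080; limma, adjusted p = 0.0271), and gefitinib was at 0.883 times vehicle (exact p = 0.629). These p-values are among 8 permutation tests of the 2 genes below the filter and are unadjusted.

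FXYD3, at chr19:35606731-35615228, measured 29.7, 40.8, 37.2 and 33.9 FPKM with vehicle, 90.3, 95.7, 99.1 and 95.4 under gefitinib, 71.2, 68.1, 85.3 and 93.4 with AZ1366, and 139, 135, 146 and 147 with the combination. Every treated library exceeded every vehicle library, and every combination library exceeded all others. Under gefitinib FXYD3 was at 2.69 times the vehicle mean (log2 difference 1.41 ± 0.094), and AZ1366 added to gefitinib raised it a further 1.49-fold (0.57 ± 0.094; limma, adjusted p = 0.000132). The combination was at 4.01 times the vehicle mean (1.98 ± 0.094). FXYD3 was thus higher with gefitinib than with vehicle and SPRR1B lower, although both were higher with AZ1366. Of the 50-base stretches of its transcripts 47.4% also belong to AC020907.6, an annotated gene that overlaps it, so its level may include reads of that gene.

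Among the type II keratins, KRT7 (chr12:52626953-52642709) measured 1876, 1946, 1627 and 1606 FPKM with vehicle, 1681, 1696, 1608 and 1736 under gefitinib, 1644, 1086, 1484 and 1395 with AZ1366, and 1351, 1431, 1269 and 1269.6 with the combination. Gefitinib and vehicle overlapped (log2 change -0.07 ± 0.099; limma, adjusted p = 0.578), and AZ1366 overlapped vehicle in 1 library. Added to gefitinib, AZ1366 lowered KRT7 by -0.34 ± 0.099 with no overlap (limma, adjusted p = 0.00927). The size of that fall depended on the scaling, -0.51 after quantile normalization and -0.22 after median-ratio scaling. Against vehicle the combination was at -0.40 ± 0.099 (limma, adjusted p = 0.0012), with -0.81 and -0.22 under those scalings.

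KRT8, the type II partner of KRT18, fell in each tested comparison. It measured 1644, 1398, 1325 and 1451 FPKM with vehicle, 1024, 1103, 977 and 1111 under gefitinib, 1011, 848, 905 and 889.97 with AZ1366, and 702, 728, 669 and 681 with the combination. No combination library reached the lowest library of any other group. The changes were -0.46 ± 0.071 for gefitinib against vehicle (limma, adjusted p = 2.16e-05), -0.60 ± 0.071 for AZ1366 added to gefitinib (adjusted p = 5.66e-06) and -1.06 ± 0.071 for the combination against vehicle (adjusted p = 2.8e-10). The last is a fall of the mean from 1454 to 695 FPKM.

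KRT80 (chr12:52562779-52585784), a type II keratin of differentiating epithelium, moved in opposite directions with the compounds. It measured 147, 132, 132 and 138 FPKM with vehicle, 183, 184, 180.5 and 187 under gefitinib, 115, 88.3, 95.6 and 93.5 with AZ1366, and 126, 130.5, 111 and 115 with the combination. Gefitinib libraries stood above all others, and AZ1366 libraries stood below all vehicle libraries. Gefitinib raised KRT80 by 0.42 ± 0.071 (limma, adjusted p = 6.35e-05), and AZ1366 added to gefitinib lowered it by -0.60 ± 0.071 (adjusted p = 5.25e-06), or -0.39 after a correction for transcript length and GC content. The combination against vehicle was called lower at -0.19 ± 0.071 (limma, adjusted p = 0.0231), but that call does not hold: the value was -0.01 (adjusted p = 0.919) after median-ratio scaling, 0.20 (adjusted p = 4.8e-05) after the length and GC correction, and no longer past the threshold without vehicle replicate 1 (-0.15, adjusted p = 0.0725), combination replicate 3 (-0.15, adjusted p = 0.0858) or combination replicate 4 (-0.16, adjusted p = 0.0654).

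Of the type I keratins, KRT18 measured 1142, 1075, 1022 and 963 FPKM with vehicle, 701, 797, 748 and 799 under gefitinib, 816, 611, 754 and 735 with AZ1366, and 479, 524, 451 and 491 with the combination. Like KRT8, it was lowest in the combination without overlap. It fell by -0.46 ± 0.081 with gefitinib (limma, adjusted p = 8.4e-05) and by -0.65 ± 0.081 when AZ1366 was added to gefitinib (adjusted p = 9.67e-06), to 0.463 of the vehicle mean in the combination (-1.11 ± 0.081; adjusted p = 8.84e-10). KRT8 and KRT18 share 1 locus interval in the table, chr12:53290970-53346685, and are encoded on opposite strands. Whether the counting used strand is not stated, so reads in any overlap of the 2 genes cannot be told apart. Of the 50-base stretches of KRT8 29.2% also occur in other annotated genes, most often KRT8P3, and of those of KRT18 30.4%, most often KRT18P11, both pseudogenes.

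KRT19 (chr17:39679868-39684641), a type I keratin that pairs with KRT8 in simple epithelia, did not follow KRT18. Its libraries measured 866, 735, 815 and 789 FPKM with vehicle, 644, 728, 631 and 688 under gefitinib, 954, 714, 819.6 and 814 with AZ1366, and 814, 851, 751 and 755 with the combination. Gefitinib libraries lay below all vehicle and combination libraries, with 1 AZ1366 library (714 FPKM) among them, and the other 3 groups overlapped. It fell by -0.25 ± 0.079 with gefitinib (limma, adjusted p = 0.0102). The rise of 0.24 ± 0.079 when AZ1366 was added to gefitinib (limma, adjusted p = 0.0194) was lost after quantile normalization (0.09, adjusted p = 0.470), and without gefitinib replicate 1 (adjusted p = 0.0549), gefitinib replicate 3 (adjusted p = 0.0574) or combination replicate 2 (adjusted p = 0.0568). With AZ1366 alone the level was 1.03 times that of vehicle.

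KRT17 (chr17:39775691-39780882), a type I keratin of basal and stressed epithelium, was near the limit of 1 FPKM. It measured 0.714, 0.540, 0.682 and 0.474 FPKM with vehicle, 1.06, 1.47, 1.19 and 1.16 under gefitinib, 0.480, 0.314, 0.325 and 0.464 with AZ1366, and 0.699, 0.645, 0.548 and 0.598 with the combination. As for KRT80, the gefitinib libraries stood above all others. The gefitinib mean was 2.03 times that of vehicle and the combination 0.510 times that of gefitinib (exact permutation tests, two-sided, p = 0.0286 each, the smallest possible). The combination was at 1.57 times AZ1366 (exact p = 0.0286) and at 1.03 times vehicle (exact p = 0.771). Other annotated genes, most often the pseudogene KRT17P1, share 17.4% of its 50-base stretches.

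Ratios within a library show the uneven change of the simple epithelial keratins without any scaling between libraries. The ratio of KRT8 to KRT18 was 1.39 ± 0.104 with vehicle, 1.38 ± 0.0628 under gefitinib, 1.26 ± 0.0875 with AZ1366 and 1.43 ± 0.0498 with the combination (SD, n = 4), with every group overlapping vehicle. KRT19 to KRT18, in contrast, rose from 0.765 ± 0.0597 with vehicle to 0.884 ± 0.0370 under gefitinib, 1.13 ± 0.0423 with AZ1366 and 1.63 ± 0.0690 with the combination, and no group overlapped another. The ratio of KRT7 to KRT8 was 1.22 ± 0.127 with vehicle, 1.597 ± 0.0545 under gefitinib, 1.53 ± 0.168 with AZ1366 and 1.91 ± 0.0426 with the combination, where all combination libraries stood above all others. Together KRT7, KRT8, KRT18 and KRT19 held 1.15 ± 0.0913% of all FPKM with vehicle, 0.923 ± 0.0241% under gefitinib, 0.847 ± 0.0914% with AZ1366 and 0.696 ± 0.0366% with the combination. These ratios were formed after the values were seen and are descriptions with no test.

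**Figure D2:**
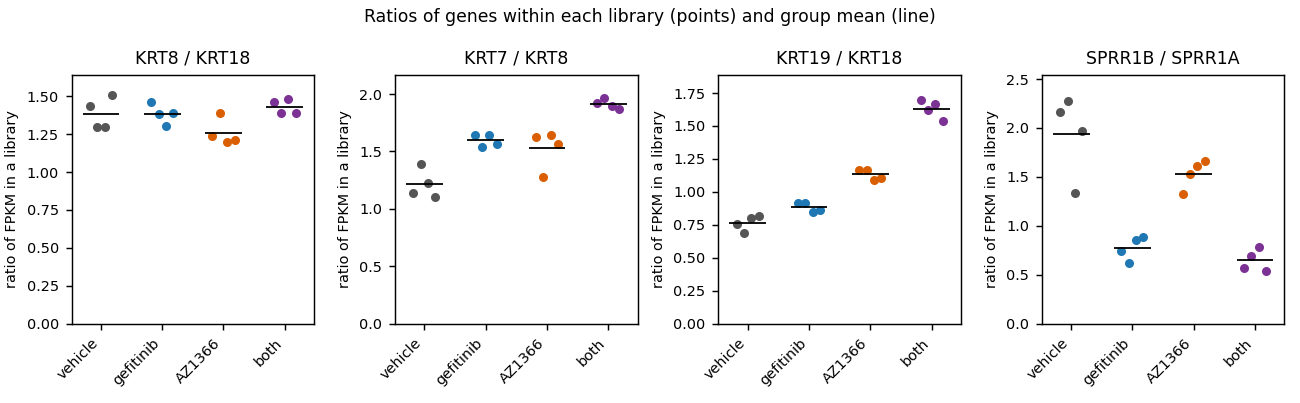
Ratio of the FPKM of 2 genes in each library (points, vertical axes from 0) and the group mean (line) for the 4 treatment groups; "both" is the combination. KRT8 to KRT18 stays between 1.20 and 1.51 in all libraries, KRT19 to KRT18 goes from means of 0.765 with vehicle to 1.63 with both compounds, and SPRR1B to SPRR1A separates libraries with gefitinib from those without.

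The question whether AZ1366 acts on these genes also in the presence of gefitinib was tested in the combination against gefitinib. That difference of means uses neither the vehicle nor the AZ1366 libraries, although the filter and the variance estimate draw on all 16. SPRR1A, SPRR1B, FXYD3 and KRT19 rose and KRT7, KRT8, KRT18 and KRT80 fell, so that 4 of the 8 tested genes were called in each direction (limma, adjusted p under 0.05). Among all 11647 tested loci 15.3% were called higher and 37.2% lower, with a median log2 change of -0.10 against -0.05 for the 8 genes. SPRR1A, SPRR1B and FXYD3 were chosen because they were higher with AZ1366, so the count of rises is no neutral share. The call of KRT19 was lost after quantile normalization and without certain single libraries, as given above. Taken relative to the median of all loci, the rises were 0.87 for SPRR1A, 0.61 for SPRR1B, 0.67 for FXYD3 and 0.34 for KRT19, and the changes of the other 4 ran from -0.24 (KRT7) to -0.55 (KRT18). Quantile normalization, median-ratio scaling and the length and GC correction each brought the median of all loci to between -0.02 and 0.01 in every comparison.

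In the comparison of AZ1366 with vehicle, which chose 3 of the genes, 3 of 8 were higher and 3 lower with no overlap between the groups, beside 14.6% and 26.0% of all tested loci. The log2 differences were 1.33 ± 0.094 for SPRR1A, 1.18 ± 0.13 for SPRR1B, 1.14 ± 0.094 for FXYD3, -0.34 ± 0.099 for KRT7, -0.67 ± 0.071 for KRT8, -0.53 ± 0.081 for KRT18, 0.04 ± 0.079 for KRT19 and -0.49 ± 0.071 for KRT80. KRT7 was at -0.62 after quantile normalization, at -0.22 after median-ratio scaling and also at -0.22 without AZ1366 replicate 2, and KRT80 at -0.18 after the length and GC correction. The median of all loci was -0.10. The difference of the AZ1366 effect with and without gefitinib (the interaction) was -0.56 ± 0.13 for SPRR1A, -0.67 ± 0.18 for SPRR1B and -0.57 ± 0.13 for FXYD3, and between -0.12 and 0.20 for the 5 keratins. The first 3 estimates contain the values that chose the genes, so the smaller rise beside gefitinib is given as a description.

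**Figure D3:**
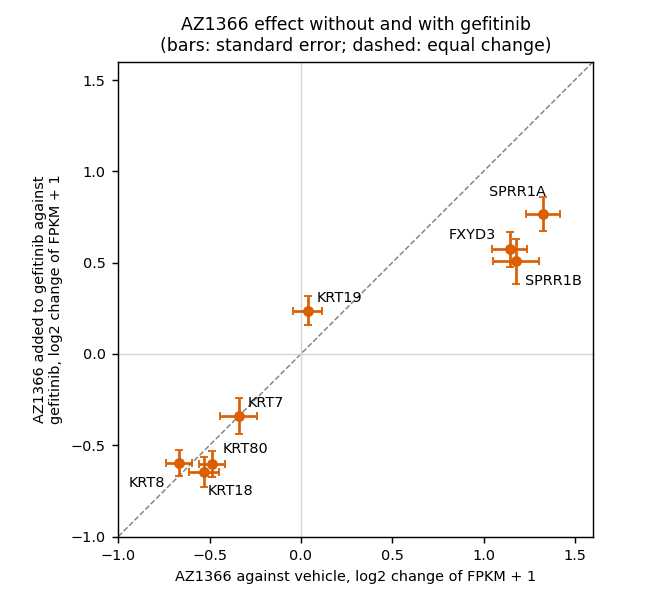
Log2 change of FPKM + 1 for AZ1366 against vehicle (horizontal axis) and for AZ1366 added to gefitinib against gefitinib (vertical axis) for the 8 tested genes, with standard errors as bars and the line of equal change dashed. SPRR1A, SPRR1B and FXYD3 lie below that line at 0.77, 0.51 and 0.57 on the vertical axis, while KRT7, KRT8, KRT18 and KRT80 lie near it.

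The other 3 tested comparisons share vehicle or AZ1366 libraries with the one that chose genes. The counts that follow include SPRR1A, SPRR1B and FXYD3, and nothing is read from their part in them. They are thus no neutral shares to set against those of all loci. For gefitinib against vehicle, KRT80 was past the threshold as higher and KRT8, KRT18 and KRT19 as lower. With FXYD3 (higher) and SPRR1B (lower) the counts were 2 and 4 of 8, beside 27.7% and 36.9% of all tested loci. KRT7 was not called there, though it reached -0.30 (limma, adjusted p = 0.0374) after quantile normalization. For the combination against AZ1366, KRT80 rose (0.30 ± 0.071, groups overlapping; limma, adjusted p = 0.00128), and KRT8 (-0.39 ± 0.071; adjusted p = 0.00012) and KRT18 (-0.58 ± 0.081; adjusted p = 7.79e-06) fell. The differences of the genes chosen on AZ1366 libraries were 0.84 ± 0.094 for FXYD3, -0.65 ± 0.094 for SPRR1A and -1.70 ± 0.13 for SPRR1B. With these, the counts were 2 higher and 4 lower of 8, beside 26.9% and 35.7% of all tested loci. KRT7 (-0.06 ± 0.099; limma, adjusted p = 0.605) and KRT19 (-0.05 ± 0.079; adjusted p = 0.578) were not called. For the combination against vehicle, KRT7, KRT8, KRT18 and KRT80 were past the threshold as lower, of which the call of KRT80 does not hold, as given above. No keratin was called higher. With SPRR1A and FXYD3 (higher) and SPRR1B (lower) the counts were 2 and 5 of 8, beside 29.9% and 49.4% of all tested loci. KRT19 was at -0.02 ± 0.079 (limma, adjusted p = 0.865) against a median of -0.15 over all loci. Relative to that median KRT19 stood at 0.14, KRT80 at -0.03, KRT8 at -0.91 and KRT18 at -0.96.

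**Figure D4:**
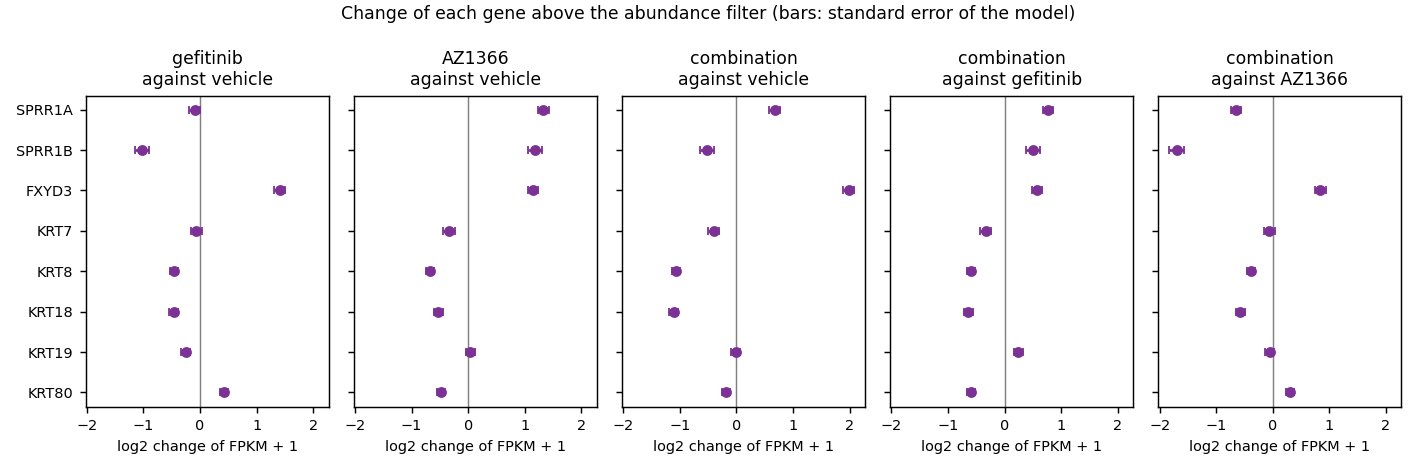
Log2 change of FPKM + 1 (horizontal axes) of the 8 tested genes in 5 comparisons, with the standard error of the model as bars and 0 as the grey line. FXYD3 is to the right in all 5 panels and KRT8 and KRT18 to the left in all 5, while SPRR1B changes side between AZ1366 against vehicle (1.18) and the comparisons of gefitinib or the combination with vehicle (-1.03 and -0.52).

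Transcript length moved with these comparisons across all loci. Over 11531 loci with a length, Spearman's rho of the log2 change with length was -0.457 for the combination against gefitinib, -0.381 for AZ1366 against vehicle, -0.335 for the combination against vehicle, -0.226 for the combination against AZ1366 and -0.206 for gefitinib against vehicle, so short transcripts tended to be higher. The SPRR1A model is short (270 bases) and so is that of SPRR1B (620 bases), whereas KRT80 is long (3876.5 bases). The SPRR1A length is that of a coding sequence alone and may be too short, so its corrected values are uncertain. The length and GC correction was fitted for every comparison. After it the combination against vehicle was 0.41 for SPRR1A and -0.81 for SPRR1B, and gefitinib against vehicle was -0.27 for SPRR1A. In the combination against gefitinib, where the trend with length was strongest, every tested gene kept its call after this correction. The part of length in these results was not tested in any other way.

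Other genes of the envelope were mostly below 1 FPKM: of 37 further precursors (involucrin, loricrin, SPRR2 and late envelope genes) 2 passed the filter. SPRR2D, another small proline-rich gene of the cluster, measured 1.12 ± 0.0847 FPKM with vehicle, 0.612 ± 0.197 under gefitinib, 2.38 ± 0.380 with AZ1366 and 1.05 ± 0.208 with the combination. It fell with gefitinib (-0.40 ± 0.095; limma, adjusted p = 0.00128) and rose when AZ1366 was added to gefitinib (0.35 ± 0.095; adjusted p = 0.00555). It passed the filter only through its AZ1366 libraries (mean of the other 3 groups 0.929 FPKM), so these calls support nothing about SPRR1B. SPRR2A, chosen after its values were seen and below the filter, had means of 0.735, 0.428, 1.84 and 0.832 FPKM in the same order of groups. IVL, which encodes the scaffold protein involucrin, took another course: 1.16 ± 0.273 FPKM with vehicle, 1.97 ± 0.272 under gefitinib, 1.37 ± 0.359 with AZ1366 and 2.06 ± 0.203 with the combination, a rise of 0.46 ± 0.0999 with gefitinib (limma, adjusted p = 0.000683) and 0.05 ± 0.0999 when AZ1366 was added (adjusted p = 0.710).

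Of 20 crosslinking and scaffold genes 10 were tested. In the combination against gefitinib 2 rose and 5 fell (median -0.18), or 3 and 3 after median-ratio scaling, near the 15.3% and 37.2% of all tested loci; sciellin (SCEL), an envelope precursor, fell by 0.81 ± 0.093 on the log2 scale (limma, adjusted p = 4.12e-06) and the transglutaminase TGM2 fell by 0.35 ± 0.070 (adjusted p = 0.000693), while the protease inhibitor SLPI rose by 0.50 ± 0.052 (adjusted p = 1.4e-06). Among 15 S100 genes, small calcium-binding proteins of which several lie in the same chromosomal cluster as SPRR genes, 10 were tested. There 8 rose and 0 fell (median 0.38; limma; 9 and 1 at an unadjusted p under 0.05), beside 15.3% and 37.2% of all tested loci, among them S100A4 (0.77 ± 0.078) and S100A13 (0.42 ± 0.052). S100P (0.77 ± 0.089) is counted among the 8 but passed the filter only through the combination libraries (mean of the other 3 groups 0.982 FPKM). The counts were 7 and 1 after the length and GC correction and 6 and 1 after quantile normalization. In gefitinib against vehicle 4 S100 genes were higher and 4 lower, near the 27.7% and 36.9% of all tested loci.

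Other keratins were few at this level. Of 25 further type I keratins 3 were tested: KRT16, a keratin of activated epithelium, went from 2.41 ± 0.408 FPKM with vehicle to 7.85 ± 0.499 with gefitinib (1.38 ± 0.070; limma, adjusted p = 2.28e-11), and KRT15 fell with gefitinib (-0.39 ± 0.056; adjusted p = 1.12e-05) and rose when AZ1366 was added (0.35 ± 0.056; adjusted p = 9.91e-05). KRT16 shared the rise of KRT17 under gefitinib, but with AZ1366 alone its mean was 2.27 FPKM. Of 23 further type II keratins 5 were tested and 0 were called in the combination against gefitinib (limma; also 0 at an unadjusted p under 0.05, and 1 lower after the length and GC correction). KRT6A is among the 5 but passed the filter only through its AZ1366 libraries (mean of the other 3 groups 0.969 FPKM). At the junctions that anchor keratin filaments, 1 of 10 tested desmosome genes rose (PERP, 0.32 ± 0.042) and 5 fell, among them the plakophilin PKP2 (-0.85 ± 0.11; limma, adjusted p = 1.04e-05), though 4 rose after median-ratio scaling and 3 after each of the other corrections; the shares over all tested loci were 15.3% and 37.2%. Of 5 tested hemidesmosome genes 0 rose and 4 fell (limma; 0 and 4 also at an unadjusted p under 0.05), beside the same 15.3% and 37.2%, including the integrin chains ITGA6 (-0.40 ± 0.082) and ITGB4 (-0.45 ± 0.099); after median-ratio scaling 1 rose. With gefitinib alone ITGA6 fell from 137 ± 2.54 to 51.6 ± 3.57 FPKM (-1.39 ± 0.082; limma, adjusted p = 1.68e-10).

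Of the sodium pump subunits and other FXYD genes, the partners of FXYD3, 5 of 13 were tested. ATP1B1, the beta subunit, rose with gefitinib (0.48 ± 0.068; limma, adjusted p = 9.26e-06) and when AZ1366 was added to gefitinib (0.26 ± 0.068; adjusted p = 0.00437). Of 22 regulators of squamous and epithelial differentiation 17 were tested, and in the combination against gefitinib 5 rose and 5 fell, beside 15.3% and 37.2% of all tested loci; 8 rose and 4 fell after median-ratio scaling. FOSL1, a subunit of AP-1, went from 49.6 ± 5.82 FPKM with vehicle to 11.4 ± 1.06 under gefitinib, 22.7 ± 3.76 with AZ1366 and 4.76 ± 0.258 with the combination (gefitinib against vehicle -2.03 ± 0.10; limma, adjusted p = 2.14e-11). FOSL1 was thus lowest with the combination. Any link of its level to the genes described here was not tested. ELF3, an epithelial ETS factor, rose with gefitinib (0.86 ± 0.071; limma, adjusted p = 1.25e-08) from 38.3 ± 3.58 to 70.1 ± 2.86 FPKM.

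**Figure D5:**
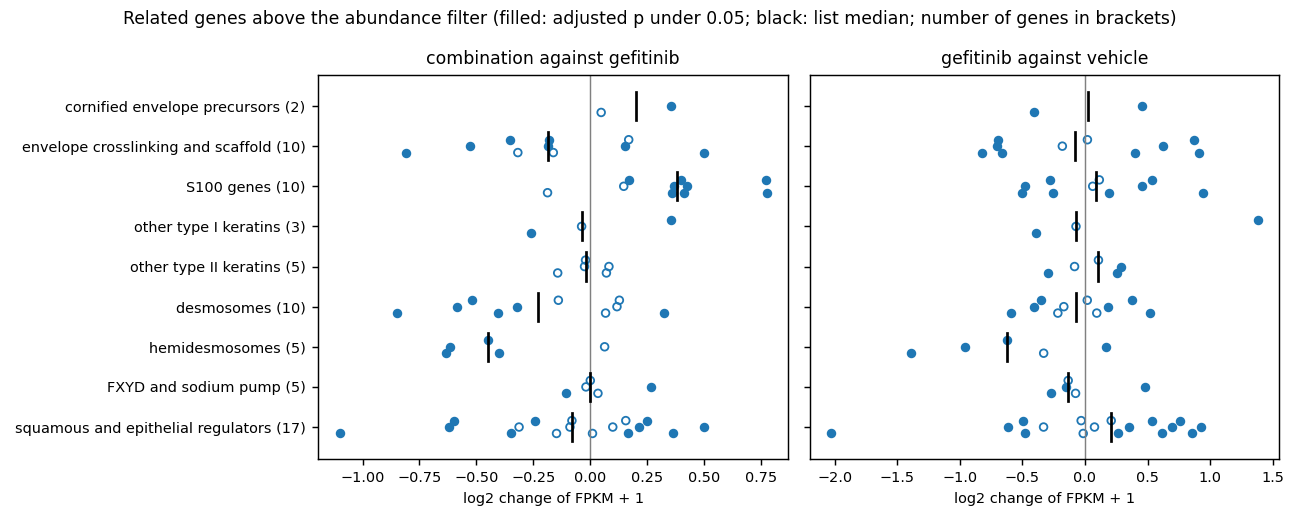
Log2 change of FPKM + 1 (horizontal axes) of every tested gene of 9 related lists (points; filled where the adjusted p was under 0.05), with the list median as a black bar and the number of tested genes in brackets. S100 genes lie mostly to the right of 0 in the combination against gefitinib (median 0.38), hemidesmosome genes mostly to the left in both panels (medians -0.45 and -0.62).

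The 2 tested loci whose log2 levels followed each gene most closely over the 16 libraries were also found; all points share the 4 treatment groups, so the correlations describe a common pattern only. For SPRR1A they were CEACAM8 (Pearson r = 0.958) and RAB27B (0.948), and for SPRR1B RGS17 (0.972) and CSRP1 (0.964). CEACAM8 had a mean of 3.02 FPKM with vehicle, 3.13 under gefitinib, 4.72 with AZ1366 and 3.97 with the combination, highest with AZ1366 as SPRR1A was. KRT8 was followed by SLC41A1 (0.992) and ENC1 (0.989), KRT18 by SLC39A14 (0.984) and TUBB6 (0.983), and KRT80 by C10orf47 (0.989) and NUAK2 (0.987). FXYD3 was followed by LOC729013 (0.987) and KRT17 by IGFBP3 (0.956). The closest loci of KRT7 (ZFP36L1, 0.918), KRT19 (TTYH2, 0.882) and SPRR3 (GJB5, 0.855) were less close.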

How the data were processed

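Per the labels, polyA RNA of HCC4006 cells was extracted with a miRNeasy kit and made into TruSeq version 2 libraries; whether they keep the strand is not given in the sources used here. The deposited table holds FPKM for 24293 loci and 16 libraries. The hg19 genome, Cuffdiff, Cufflinks 1.3.0 and TopHat 1.4.1 were used, per the submitters' processing notes; the role of each and the annotation are not given there. The authors' FPKM entered every step unchanged. Low values gave no steps of whole reads (ratios between libraries of loci averaging 0.05 FPKM or less put at most 9.42% into a bin 0.05 wide on the log2 scale), and the depth is unknown. No 2 libraries were identical (0 pairs).

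log2(FPKM + 1) was fitted in R 4.3.3 by limma 3.58.1 on the 4 groups (12 residual degrees of freedom), with variances moderated along a mean-variance trend. It covered 11647 loci with a mean of at least 1 FPKM, two-sided, with Benjamini-Hochberg adjustment over all of them and a threshold of 0.05. Errors of changes are the model's standard errors, those of levels the SD of 4 libraries. For SPRR3 and KRT17 the group means were permuted exactly (70 assignments, an exact permutation test). The fit was tested on simulated data. Members and gene lists were chosen with earlier results of these data known. Named were the 10 members, up to 3 tested genes with the smallest p of each list and comparison, and the 2 loci most correlated with each member; the text prints part of them, and 1 gene is not reported here.

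Alternatives were a pseudocount of 0.1, no filter, a filter at 5 FPKM (8037 loci), median-ratio scaling, quantile normalization, no trend, a fit of the compared groups alone, a replicate block (same-numbered gefitinib and combination libraries deviated together, with correlations of 0.224 to 0.321, but other same-numbered pairs did not all do so), a smooth correction of each library for transcript length and GC content (5 spline terms each), and leaving out libraries. Lengths and 50-base stretches came from GENCODE transcripts on GRCh38, matched by RefSeq accession. For lengths the gene name was used where no accession matched, which gave a length for 11531 tested loci (99.0%). Upstream sequences came from RefSeq on GRCh38.p14. Coordinates of genes are the locus intervals of the table on hg19. Scripts used numpy 2.4.6, scipy 1.17.1 and pandas 2.3.3.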

Additional observations from a re-analysis of the deposited data

How the results depend on the processing

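The 8 counts of genes called higher or lower, with SPRR1A, SPRR1B and FXYD3 included, stayed within 1.5 times in 207 of 208 pairs of a count and a setting. With a minimum mean of 5 FPKM, 1 gene in place of 2 was higher in the combination against vehicle, because SPRR1A then left the fit and 7 genes remained. That limit is wide for such small counts, since 2 may become 3. This occurred in the combination against vehicle, where KRT19 was called higher after median-ratio scaling and KRT80 after the length and GC correction. The counts cover the 4 tested comparisons. Without 1 library at a time the counts were 3 to 4 higher and 4 lower for the combination against gefitinib, 2 and 4 for gefitinib against vehicle and for the combination against AZ1366, and 2 and 4 to 5 for the combination against vehicle. In the 4 tested comparisons single genes changed sign in 11 cases. KRT19 in AZ1366 against vehicle (0.04), a value with no test, ran from -0.035 to 0.10 without 1 library at a time. KRT19 in the combination against vehicle (-0.02) was 0.17 after median-ratio scaling (adjusted p = 0.026) and 0.023 without vehicle replicate 1 and AZ1366 replicate 1 together, and without 1 library at a time it ran from -0.056 to 0.023, above 0 without vehicle replicate 1 (0.023), combination replicate 3 (0.010) or combination replicate 4 (0.0073). KRT80 there was 0.20 after the length and GC correction. In the combination against AZ1366, KRT7 (-0.06) was 0.021 without AZ1366 replicate 1, alone or together with vehicle replicate 1, and ran from -0.18 to 0.021 without 1 library at a time; KRT19 (-0.05) was 0.019 under the same 2 settings, ran from -0.12 to 0.019, and was 0.0037 after median-ratio scaling. The causes were not tested. KRT19 was called in 2 further settings, -0.16 in the combination against AZ1366 after the length and GC correction (adjusted p = 0.0155) and -0.27 in the combination against vehicle after quantile normalization (adjusted p = 0.0144). With a replicate block, all 8 counts were the same and each tested value kept its call: 4 genes higher and 4 lower in the combination against gefitinib. Whether the numbers pair the libraries is not given by the labels, and they were not used as pairs: of 24 pairs with the same number the correlations of deviations ran from -0.447 to 0.539 with 16 over 0.1, although the 4 pairs of gefitinib and combination libraries were all over 0.1 (0.224 to 0.321), and 8 of 16 libraries correlated best with their own number. After the length and GC correction SPRR1A in gefitinib against vehicle was -0.27. Among 40 gene and group combinations, 0 held a library far from the other 3. The depth is unknown, so what could not be detected for SPRR3 and KRT17 near 1 FPKM cannot be bounded.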
